A study of Mus musculus with 14 samples.

Results

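The Rab genes of vesicle traffic were followed in kidney messenger RNA of male C57BL/6J mice, libraries being made from kidney after injection of Dps, MnDps or vehicle. Genes were members of the set if their symbol was Rab followed by digits and at most 1 letter, and they were selected on their counts, which had to reach 10 or more in at least 2 libraries. This kept 54 of 59 genes with such a symbol, out of 24421 genes in the count table. The 14 libraries fell into MnDps at 24 h (2 libraries), MnDps at 4 h (3), Dps at 24 h (3), Dps at 4 h (3) and vehicle control (3). Both proteins were given into a vein at 18 mg/kg. The series title presents them as protein nanocages directed to the proximal tubule by filtration. The labels do not spell out Dps or MnDps, name the vehicle, give an age or a control time point, or say whether each library was a different mouse, and the p-values cover only library-to-library spread, which may be technical.

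Rab proteins are small GTPases that mark the membranes of a cell. An exchange factor loads a Rab with GTP on its membrane, the loaded form recruits effectors such as tethers and motors, and an activating protein for GTP hydrolysis switches it off, after which GDI extracts the protein for another round. Newly made Rabs are bound by an escort protein and given lipid anchors by geranylgeranyl transferase. In the proximal tubule, filtered protein is taken up through megalin and cubilin into early endosomes, and receptors recycle to the apical membrane while cargo passes to lysosomes.

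Total counts ran between 15097093 and 42074942 per library, and levels are given as CPM, counts per 1000000 reads of a library scaled by the trimmed mean of M-values. MnDps 4 h replicate 3 stood apart from the other libraries of its group on the second principal component, at 40.3 against 10 and 14, and the counts of called Rab genes and regulators in MnDps 4 h kidneys are given below with and without it. Summed CPM of 8 endothelial markers was 518 to 567 in MnDps 24 h kidneys, 292 to 361 in MnDps 4 h kidneys, 457 to 532 in Dps 24 h kidneys, 272 to 369 in Dps 4 h kidneys and 394 to 447 in control kidneys. The sum of 8 macrophage markers was 183 to 191 in MnDps 24 h kidneys, 95.5 to 105 in MnDps 4 h kidneys, 181 to 196 in Dps 24 h kidneys, 96.4 to 108 in Dps 4 h kidneys and 121 to 148 in control kidneys. Both sums were thus below control at 4 h and above it at 24 h in every library. In MnDps 24 h kidneys, however, 2 of the 8 endothelial markers were called higher and 0 lower by the test given below. In Dps 24 h kidneys 1 was higher and 1 lower. Over all tested genes these shares were 4.93% and 8.39% in MnDps 24 h and 9.64% and 10.4% in Dps 24 h kidneys. Most of the endothelial list was thus not called at 24 h. The sum of 6 collecting duct markers was 821 to 997 in MnDps 24 h kidneys, 599 to 733 in MnDps 4 h kidneys, 828 to 892 in Dps 24 h kidneys, 430 to 525 in Dps 4 h kidneys and 524 to 636 in control kidneys. Proximal tubule markers, which define the tissue, were abundant everywhere, and none of the 8 was at 0. They summed to 45700 to 53200 CPM in MnDps 24 h kidneys, 55400 to 68200 in MnDps 4 h kidneys, 50000 to 63000 in Dps 24 h kidneys, 43200 to 48900 in Dps 4 h kidneys and 49500 to 51900 in control kidneys, so that every MnDps 4 h library lay above control and every Dps 4 h library below it. By the test against control given below, however, 1 of the 8 was called higher and 5 lower in MnDps 4 h kidneys. Over all tested genes these shares were 22.9% and 22.7%. In Dps 4 h kidneys 0 of the 8 were higher and 1 lower, beside 8.33% and 6.27%. The higher sum in MnDps 4 h kidneys was thus not shared by most of its list. The sum of 6 thick ascending and distal tubule markers was 3710 to 3900 in MnDps 24 h, 4180 to 4820 in MnDps 4 h, 3690 to 4370 in Dps 24 h, 4160 to 4720 in Dps 4 h and 4710 to 5920 in control kidneys, and that of 5 podocyte markers was 283 to 323, 297 to 335, 275 to 327, 307 to 372 and 363 to 365 in the same order. Both were below control in every 24 h library. Neutrophil markers, 7 of 8 in the table, summed to 1.80 to 2.02 in MnDps 24 h kidneys, 10.9 to 19.2 in MnDps 4 h kidneys, 1.91 to 3.06 in Dps 24 h kidneys, 5.10 to 7.85 in Dps 4 h kidneys and 0.745 to 1.76 in control kidneys, and Ngp was at 0 in both 24 h groups and Cxcr2 in MnDps 24 h kidneys. The sum of 5 adipocyte markers was 122 to 221 in MnDps 4 h, 112 to 197 in Dps 24 h and 144 to 215 in Dps 4 h kidneys. All these libraries lay above control kidneys, at 44.5 to 98.0, while MnDps 24 h kidneys, at 59.3 to 161, overlapped them. In each of the groups above control, 1 of the 5 adipocyte markers was called higher. The part of these shifts in the Rab results was not tested. In whole kidney, fewer cells of a type and less RNA per cell cannot be told apart.

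Levels of the Rab genes spanned more than 3 orders of magnitude. Per kilobase of the longest protein-coding transcript, the highest mean RPKM over all libraries was 156 for Rab5c, an early endosome Rab, followed by 150 for Rab7, which governs late endosomes and lysosomes. Rab1, Rab1b and Rab2a, which act between endoplasmic reticulum and Golgi, had mean RPKM of 113, 105 and 97.0. The ranges over libraries of these genes were 146 to 167 for Rab5c, 138 to 167 for Rab7, 92.8 to 126 for Rab1, 91.0 to 124 for Rab1b and 76.9 to 112 for Rab2a, so neighbours in this order overlapped. Of the highest 5, Rab5c, Rab7 and Rab1b passed the test against control in no group. At the low end, Rab39 was just inside the count rule, with at most 10 counts in a library and 53 counts in all, and it was removed by the filter on low counts, which left 53 members tested. Rab37 reached 10 counts in 8 libraries and Rab42 in 10. Just outside the rule stood Rab33a, with at most 9 counts in a library, and Rab26 and Rab44, with at most 6 each. Rab3c and Rab9b were also outside, with at most 4 and 2 counts.

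**Figure D1:**
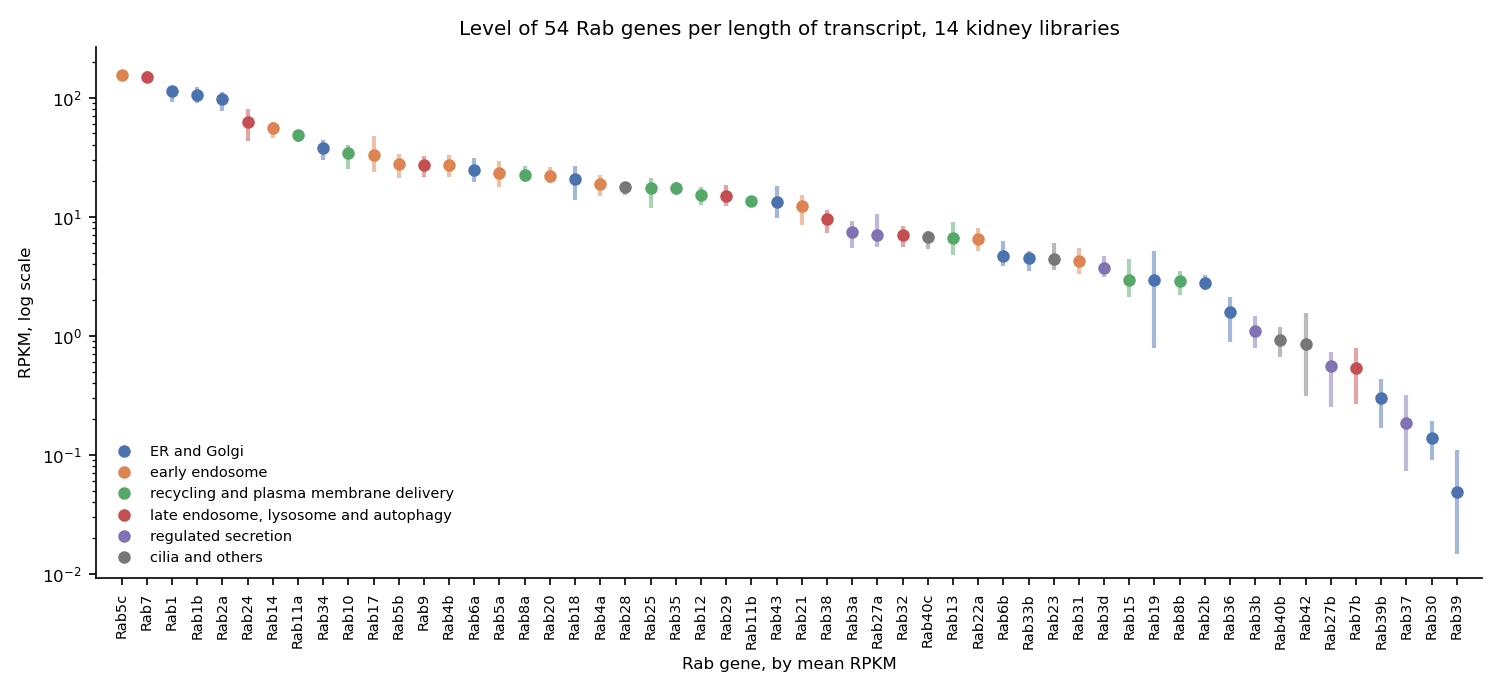
Mean RPKM (points, log scale) of 54 Rab genes over 14 kidney libraries, with the lowest to highest library as a vertical line, ordered by the mean and coloured by the role assigned to each gene. The 5 highest lie between 97.0 and 156 RPKM, and Rab19 has a wide range for its level, 0.786 to 5.13 RPKM.

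The 53 tested Rab genes were set against control in each treated group, with a gene called where edgeR's quasi-likelihood test gave a p under 0.05 after Benjamini-Hochberg adjustment over all 14854 tested genes. All 4 comparisons use the same 3 control libraries, so their calls are not independent of each other. In MnDps 24 h kidneys 3 Rab genes were higher and 9 lower, against 4.93% and 8.39% of all tested genes. In MnDps 4 h kidneys 11 were higher and 11 lower, against 22.9% and 22.7% of all tested genes. In Dps 24 h kidneys 3 were higher and 4 lower, against 9.64% and 10.4% of all tested genes. In Dps 4 h kidneys 1 was higher and 5 lower, against 8.33% and 6.27% of all tested genes. As shares of 53, the Rab genes called were 5.66% higher and 17.0% lower in MnDps 24 h kidneys, 20.8% and 20.8% in MnDps 4 h kidneys, 5.66% and 7.55% in Dps 24 h kidneys, and 1.89% and 9.43% in Dps 4 h kidneys. The shares in MnDps 4 h kidneys lay close to those of all genes. The median log2 fold change of the members was -0.08 in MnDps 24 h kidneys, -0.02 in MnDps 4 h kidneys, 0.01 in Dps 24 h kidneys and -0.02 in Dps 4 h kidneys, beside 0.02, 0.00, 0.00 and -0.02 over all tested genes. Changes were mostly small, and only Rab19, in both 4 h groups, and Rab37, at a log2 fold change of -1.17 in Dps 4 h kidneys that was not called, passed 2-fold against control. A call against control was made for 31 of the 53 genes in at least 1 group, for 12 in at least 2, and for Rab5a, Rab5b, Rab10 and Rab24 in 3. The same counts were not made over all tested genes, so whether these are many or few for the series is not known. In MnDps 4 h kidneys alone 22.9% of all tested genes were higher and 22.7% lower.

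Fold changes followed transcript length. Over all tested genes, Spearman's rho between log2 fold change against control and transcript length was -0.36 in MnDps 24 h, -0.49 in MnDps 4 h, -0.53 in Dps 24 h and 0.19 in Dps 4 h kidneys, and over the 53 Rab genes it was -0.29, -0.37, -0.29 and 0.05 in the same groups, given as descriptions across genes that share their libraries. For GC content, rho over all tested genes was 0.44, 0.27, 0.31 and 0.03 in the same groups. A second fit therefore carried each library's trend on transcript length and GC content as an offset. With the offset, rho with length over the 53 Rab genes was 0.16, 0.22, 0.45 and -0.04 in the same groups. A trend of the other sign was thus left among them, and in Dps 24 h kidneys it was larger than the one as counted. With that length and GC offset the calls were 2 higher and 10 lower in MnDps 24 h kidneys, against 2.20% and 4.49% of all tested genes. They were 7 higher and 20 lower in MnDps 4 h kidneys, against 15.8% and 22.1% of all genes. In Dps 24 h kidneys 1 was higher and 5 lower, against 3.85% and 4.61% of all genes, and in Dps 4 h kidneys 1 was higher and 11 lower, against 8.36% and 15.6% of all genes. Called in the same direction in both fits were 2 higher and 8 lower in MnDps 24 h kidneys, 4 and 9 in MnDps 4 h kidneys, 0 and 2 in Dps 24 h kidneys, and 1 and 5 in Dps 4 h kidneys. Without MnDps 4 h replicate 3, 15 rather than 22 Rab genes were called in MnDps 4 h kidneys. In that fit 17.8% of all tested genes were higher and 18.6% lower, in place of 22.9% and 22.7%. In MnDps 24 h kidneys 4 were called when either library of that group was left out. In Dps 24 h kidneys 2 or 3 were called without any 1 library of that group or without control replicate 3, and in Dps 4 h kidneys 3 without Dps 4 h replicate 1. Shares of all tested genes are not given for these last fits.

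**Figure D2:**
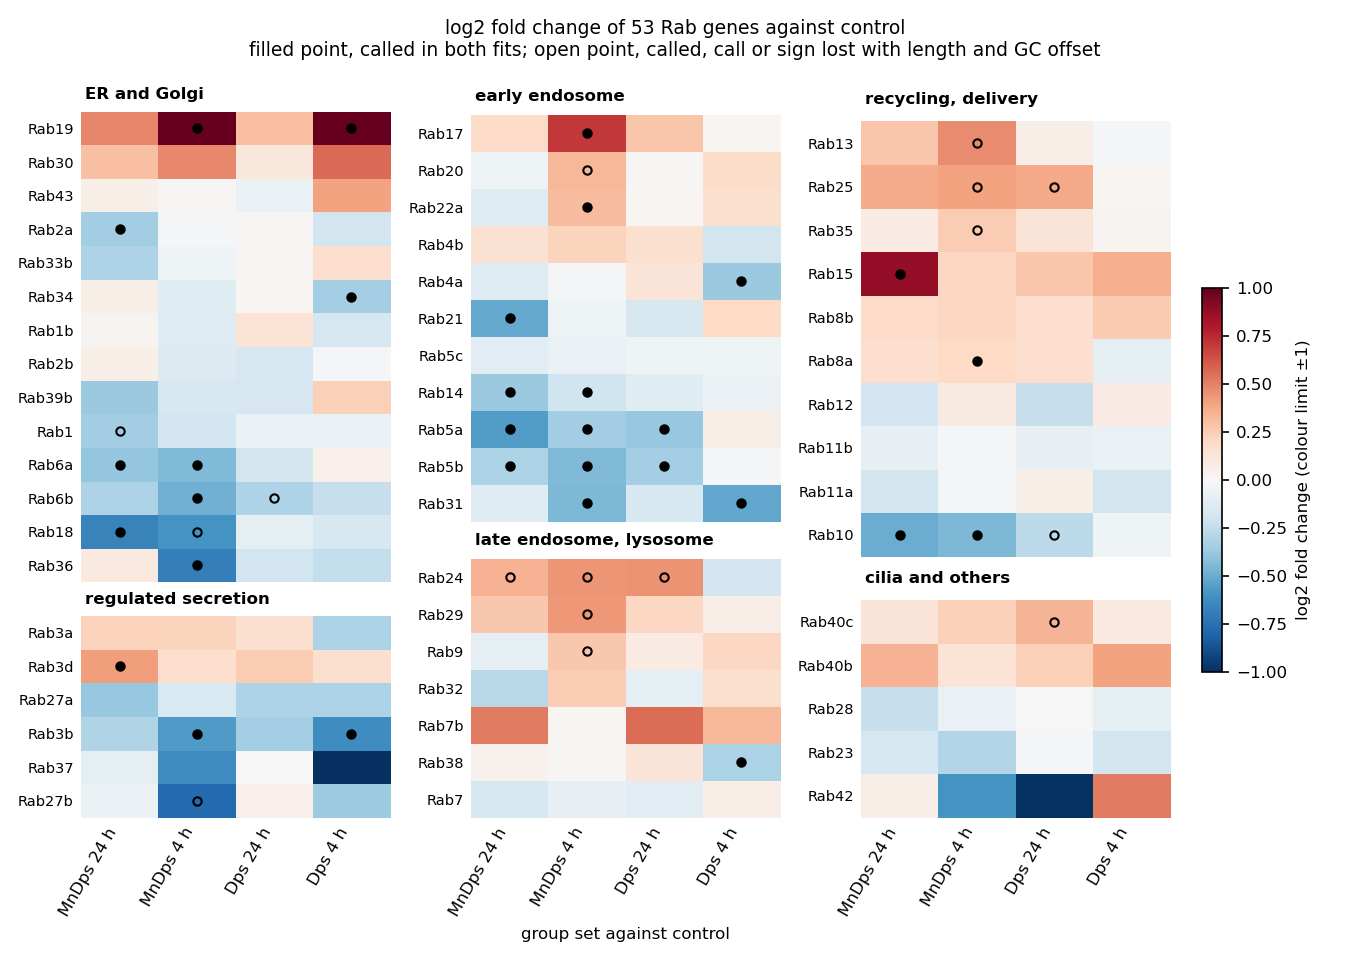
Log2 fold change against control (colour, limits -1 and 1) of 53 Rab genes in MnDps 24 h, MnDps 4 h, Dps 24 h and Dps 4 h kidneys, grouped by role. Filled points mark genes called in both fits and open points those whose call or sign was lost with the length and GC offset, which include all 3 calls for Rab24. Values off the colour scale are Rab19 in both 4 h groups, at 1.80 in MnDps 4 h and 1.59 in Dps 4 h kidneys, and Rab37, at -1.17 in Dps 4 h kidneys.

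Among the 15 Rabs assigned to endoplasmic reticulum and Golgi, Rab19, a little-studied Golgi Rab, showed the largest rise, at 4 h with either protein. Rab19 (GRCm38, chromosome 6, 39381175 to 39390380, plus strand) had 3.72 and 2.62 CPM in MnDps 24 h, 7.30, 8.08 and 7.86 in MnDps 4 h, 2.99, 2.74 and 2.49 in Dps 24 h, 5.62, 7.10 and 7.38 in Dps 4 h, and 3.18, 2.58 and 1.24 in control kidneys. All 6 libraries of 4 h lay above every library of the other groups. Against control the rise was 3.49-fold in MnDps 4 h kidneys (log2 fold change 1.80 ± 0.25, SE; adjusted p = 5.5e-05) and 3.0-fold in Dps 4 h kidneys (1.59 ± 0.25; adjusted p = 0.000314). Both calls held when any library was left out and with the length and GC offset, at 1.48 and 1.59. At 24 h Rab19 was lower than at 4 h after MnDps (log2 fold change -1.31 ± 0.28, adjusted p = 0.00389) and after Dps (-1.28 ± 0.25, adjusted p = 0.000643). The call after MnDps was lost without MnDps 24 h replicate 2, at -1.06.

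Since Rab19 stood out, the window of 250 bases before its RefSeq start was searched for short motifs on both strands, together with the windows of the other members. The 30 bases just before that start, chr6:39381323-39381352 on the plus strand of GRCm38.p6, which the GENCODE annotation places within the gene's own first exon, read as follows, with a match to the core of the interferon-stimulated response element in capitals.
Rab19: agtgggagggattgcccttgTTTCCCTTTC
That core was spelled GAAA, any 2 bases, GAAA, and the match is on the opposite strand. It was present in 978 of 32851 windows of all genes (2.98%). The 45 members with a window had 59 windows in all, and only Rab19 held a match. That is no excess over the share in all windows, and no factor's binding was measured here. No window was at hand for Rab2a, Rab18, Rab4a, Rab38, Rab36, Rab27b, Rab7b, Rab37 and Rab30.

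Of the 14 tested Rabs of this role 4 were lower in MnDps 24 h and 4 in MnDps 4 h kidneys, which is 28.6% each, beside 8.39% and 22.7% of all tested genes, and the median log2 fold change over the role was -0.14 and -0.13. Rab1b, Rab2b, Rab30, Rab33b, Rab39b and Rab43 were called against control in no group as counted. With the offset Rab1b was lower in MnDps 4 h (-0.43, adjusted p = 0.000341) and Dps 4 h kidneys (-0.22, adjusted p = 0.0386) and Rab30 higher in MnDps 4 h kidneys (1.19, adjusted p = 0.00479). As counted these values were -0.13, -0.17 and 0.48. Rab30 has the longest transcript of the tested members, at 9456 bases, and only 15 to 68 counts in a library. Rab18, a Rab of the endoplasmic reticulum and lipid droplets, had 107 and 96.1 CPM in MnDps 24 h, 110, 120 and 89.5 in MnDps 4 h, 147, 151 and 154 in Dps 24 h, 160, 137 and 136 in Dps 4 h, and 173, 156 and 156 in control kidneys. All 5 MnDps libraries lay below all 9 others. Rab18 fell in MnDps 24 h kidneys (log2 fold change -0.67 ± 0.11, adjusted p = 0.00247) and in MnDps 4 h kidneys (-0.60 ± 0.10, adjusted p = 0.000222). Its transcript is long, at 6515 bases, and with the length and GC offset the value was -0.26 in MnDps 24 h kidneys, still called, and -0.12 in MnDps 4 h kidneys, not called (adjusted p = 0.184). With the offset Rab18 was instead called lower at 4 h after Dps (-0.22, adjusted p = 0.0238), where as counted it was at -0.16 and not called. Rab6a, which directs traffic within and back to the Golgi, had 69.7 and 65.1 CPM in MnDps 24 h, 65.8, 66.9 and 62.3 in MnDps 4 h, 72.4, 82.0 and 78.8 in Dps 24 h, 100, 85.2 and 88.4 in Dps 4 h, and 85.8, 84.7 and 94.2 in control kidneys. It fell in MnDps 24 h (-0.39 ± 0.09, adjusted p = 0.0123) and MnDps 4 h kidneys (-0.44 ± 0.08, adjusted p = 0.000430), with no overlap between MnDps and control libraries. Both calls held with the offset; the call at 24 h was lost when either MnDps 24 h library or control replicate 3 was left out. Exons of Rab6a overlap Mrpl48 on the other strand, and whether counting used strand is not given, so its reads may be shared.

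Rab6b, the close relative of Rab6a best known from neurons, had 24.3 and 20.6 CPM in MnDps 24 h, 20.0, 20.5 and 19.2 in MnDps 4 h, 24.2, 21.2 and 22.0 in Dps 24 h, 26.2, 23.7 and 21.3 in Dps 4 h, and 26.7, 25.1 and 31.4 in control kidneys. It fell in MnDps 4 h kidneys (-0.48 ± 0.11, adjusted p = 0.00183; with the offset -0.32) and in Dps 24 h kidneys (-0.31 ± 0.11, adjusted p = 0.0497). The Dps 24 h call was lost with the offset and in 5 of 6 fits that left a library out. Rab36, a relative of the Golgi Rab Rab34, had 4.21, 4.12 and 2.94 CPM in MnDps 4 h against 6.64, 4.64 and 6.70 CPM in control kidneys and fell there (-0.68 ± 0.22, adjusted p = 0.0172), a call lost without MnDps 4 h replicate 3 or control replicate 3. Rab34, which also serves the forming primary cilium, had 50.7, 53 and 55 CPM in Dps 4 h against 63.5, 69.9 and 67.8 CPM in control kidneys. It fell there (-0.34 ± 0.08, adjusted p = 0.0105), and the call was lost without Dps 4 h replicate 1, at -0.30. With the offset Rab34 was also lower in MnDps 4 h (-0.47, adjusted p = 0.000175) and Dps 24 h kidneys (-0.26, adjusted p = 0.0395). As counted the values there were -0.12 and 0.02. In MnDps 24 h kidneys Rab2a (-0.35 ± 0.08, adjusted p = 0.0143) and Rab1 (-0.35 ± 0.08, adjusted p = 0.0147) fell as well, and the call for Rab1 was lost with the offset, at -0.18. Both calls were lost when either MnDps 24 h library was left out. With the offset Rab2a was also lower in MnDps 4 h (-0.18, adjusted p = 0.0197) and Dps 4 h kidneys (-0.22, adjusted p = 0.00953). Rab1 was lower with it in MnDps 4 h kidneys (-0.18, adjusted p = 0.0156). All calls of this role against control as counted are thus named above. Besides the falls in MnDps kidneys, they were Rab19 higher in MnDps 4 h and Dps 4 h kidneys, Rab6b lower in Dps 24 h and Rab34 lower in Dps 4 h kidneys.

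The early endosome group contains Rab5, whose 3 forms drive fusion of endocytic vesicles with early endosomes. As counted, Rab5a and Rab5b fell in the same 3 groups and Rab5c was not called. Rab5a (chromosome 17, 53479234 to 53507680, plus strand) had 44.4 and 42.5 CPM in MnDps 24 h, 53.4, 53.6 and 43.0 in MnDps 4 h, 45.6, 47.9 and 54 in Dps 24 h, 70.1, 64.4 and 65.2 in Dps 4 h, and 68.4, 59.2 and 64.4 in control kidneys. Every library of Dps 4 h and control lay above every library of the other 3 groups. Rab5a fell in MnDps 24 h (log2 fold change -0.56 ± 0.11, adjusted p = 0.00451), MnDps 4 h (-0.35 ± 0.09, adjusted p = 0.00596) and Dps 24 h kidneys (-0.38 ± 0.09, adjusted p = 0.0120), and the values with the offset were -0.43, -0.42 and -0.37. The MnDps 24 h call was lost without MnDps 24 h replicate 2, and the Dps 24 h one without Dps 24 h replicate 2 or control replicate 3. In Dps 4 h kidneys its mean was 66.6 ± 3.11 CPM against 64.0 ± 4.63 CPM in control kidneys (SD, n = 3 each), and it was not called.

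Rab5b had 80.1 and 81.5 CPM in MnDps 24 h, 79.0, 76.3 and 67.1 in MnDps 4 h, 77.5, 78.5 and 82.2 in Dps 24 h, 106, 93.7 and 98.4 in Dps 4 h, and 107, 88.7 and 106 in control kidneys. The same split of libraries was seen, with Dps 4 h and control above the rest. Rab5b fell in MnDps 24 h (-0.32 ± 0.10, adjusted p = 0.0408), MnDps 4 h (-0.44 ± 0.09, adjusted p = 0.000729) and Dps 24 h kidneys (-0.34 ± 0.09, adjusted p = 0.0127), and with the offset the values were -0.30, -0.47 and -0.30. The MnDps 24 h call was lost in 4 of 5 fits that left a library out, and the Dps 24 h call without control replicate 3. Rab5c, the most abundant form, was called against control in no group, with 286 to 305 CPM in MnDps 24 h, 296 to 314 in MnDps 4 h, 295 to 325 in Dps 24 h, 300 to 312 in Dps 4 h and 310 to 329 in control kidneys. With the offset, however, Rab5c was lower in MnDps 24 h (-0.30, adjusted p = 0.00915), MnDps 4 h (-0.35, adjusted p = 0.000173) and Dps 24 h kidneys (-0.22, adjusted p = 0.0215).

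Because Rab5a fell in 3 of the 4 groups, its 250 bases before the RefSeq start, chr17:53478984-53479233 on the plus strand of GRCm38.p6, are shown. Capitals mark a pair of E-box matches (CACGTG, found in 6.02% of all windows) and a cAMP response element match (TGACGTCA, found in 1.55%).
Rab5a: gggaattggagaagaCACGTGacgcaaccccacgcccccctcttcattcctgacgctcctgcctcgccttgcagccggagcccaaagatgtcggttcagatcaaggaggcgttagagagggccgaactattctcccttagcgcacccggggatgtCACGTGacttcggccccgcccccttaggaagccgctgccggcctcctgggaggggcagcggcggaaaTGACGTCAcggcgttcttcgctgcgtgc
E-box matches were also found for Rab20, Rab21, Rab23 and Rab27a, and a cAMP response element match for Rab25. AP-1 matches (TGANTCA, in 6.75% of all windows) were found for Rab15 and Rab34, and matches to the gamma-activated site (TTCNNNGAA, in 7.02%) for Rab11a, Rab15, Rab19, Rab25 and Rab34. The NF-kB motif searched, GGGA, any 2 bases, TTCC, was in 1.21% of all windows and in none of the 45 members' windows. Rab5b and Rab10, which fell in the same 3 groups as Rab5a, had windows but no match to any motif searched. No factor's binding was measured, and a part of these motifs in the falls was not tested. Exons of Rab5a overlap Pp2d1 on the other strand.

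Rab17, a Rab of polarised epithelial cells that acts in recycling and transcytosis, rose in MnDps 4 h kidneys. Rab17 (chromosome 1, 90958133 to 90969661, minus strand) had 59.5 and 55.9 CPM in MnDps 24 h, 79.4, 80.4 and 88 in MnDps 4 h, 67.3, 60.6 and 56.3 in Dps 24 h, 51.9, 53.6 and 48.2 in Dps 4 h, and 52.3, 56.6 and 43.2 in control kidneys. The 3 MnDps 4 h libraries lay above all 11 others. Against control the rise was 1.63-fold (log2 fold change 0.71 ± 0.10, adjusted p = 4.2e-05), it held without any 1 library, and with the offset it was 0.40 (adjusted p = 0.000949).

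Rab31, which carries cargo between the trans-Golgi network and endosomes, fell at 4 h with both proteins. It had 16.0 and 16.1 CPM in MnDps 24 h, 12.7, 11.7 and 13.9 in MnDps 4 h, 14.9, 16.2 and 15.7 in Dps 24 h, 11.5, 13.6 and 11.4 in Dps 4 h, and 17.6, 18.8 and 16.2 in control kidneys. All 6 libraries of 4 h lay below all 8 others. The log2 fold change against control was -0.45 ± 0.10 in MnDps 4 h (adjusted p = 0.00245) and -0.52 ± 0.10 in Dps 4 h kidneys (adjusted p = 0.00258), and both calls held with the offset and without any 1 library. The endothelial and macrophage marker sums were below control in the same 6 libraries, and their part in the fall of Rab31 was not tested.

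Rab4a, which serves fast recycling out of early endosomes, fell in Dps 4 h kidneys. Its libraries held 25.1 and 26.5 CPM in MnDps 24 h, 26.0, 28.6 and 29.3 in MnDps 4 h, 32.1, 30.4 and 30 in Dps 24 h, 21.9, 22.1 and 21.1 in Dps 4 h, and 28.8, 27.6 and 28.0 in control kidneys. The Dps 4 h libraries lay below all others. The log2 fold change was -0.37 ± 0.08 (adjusted p = 0.00285), it held under every alternative, and with the offset Rab4a was also lower in MnDps 24 h (-0.36, adjusted p = 0.0182) and MnDps 4 h kidneys (-0.41, adjusted p = 0.000615), where without it the values were -0.13 and -0.01. Rab21, which traffics integrins, had 44.1 and 38.9 CPM in MnDps 24 h against 60.4, 58.5 and 58.4 CPM in control kidneys. It fell there (-0.51 ± 0.11, adjusted p = 0.00834), with -0.29 under the offset (adjusted p = 0.0425), and the call was lost without MnDps 24 h replicate 2. Rab14, which links Golgi and endosomes, fell in MnDps 24 h (-0.37 ± 0.09, adjusted p = 0.0120) and MnDps 4 h kidneys (-0.20 ± 0.08, adjusted p = 0.0371). Rab14's call was lost without either MnDps 24 h library at 24 h and in 4 of 6 fits at 4 h. Rab20 (0.33 ± 0.09, adjusted p = 0.00594) and Rab22a (0.32 ± 0.11, adjusted p = 0.0248) rose in MnDps 4 h kidneys, but with the offset Rab20 was at -0.08 and Rab22a at 0.69. The call for Rab22a was lost in 3 of 6 fits that left a library out.

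**Figure D3:**
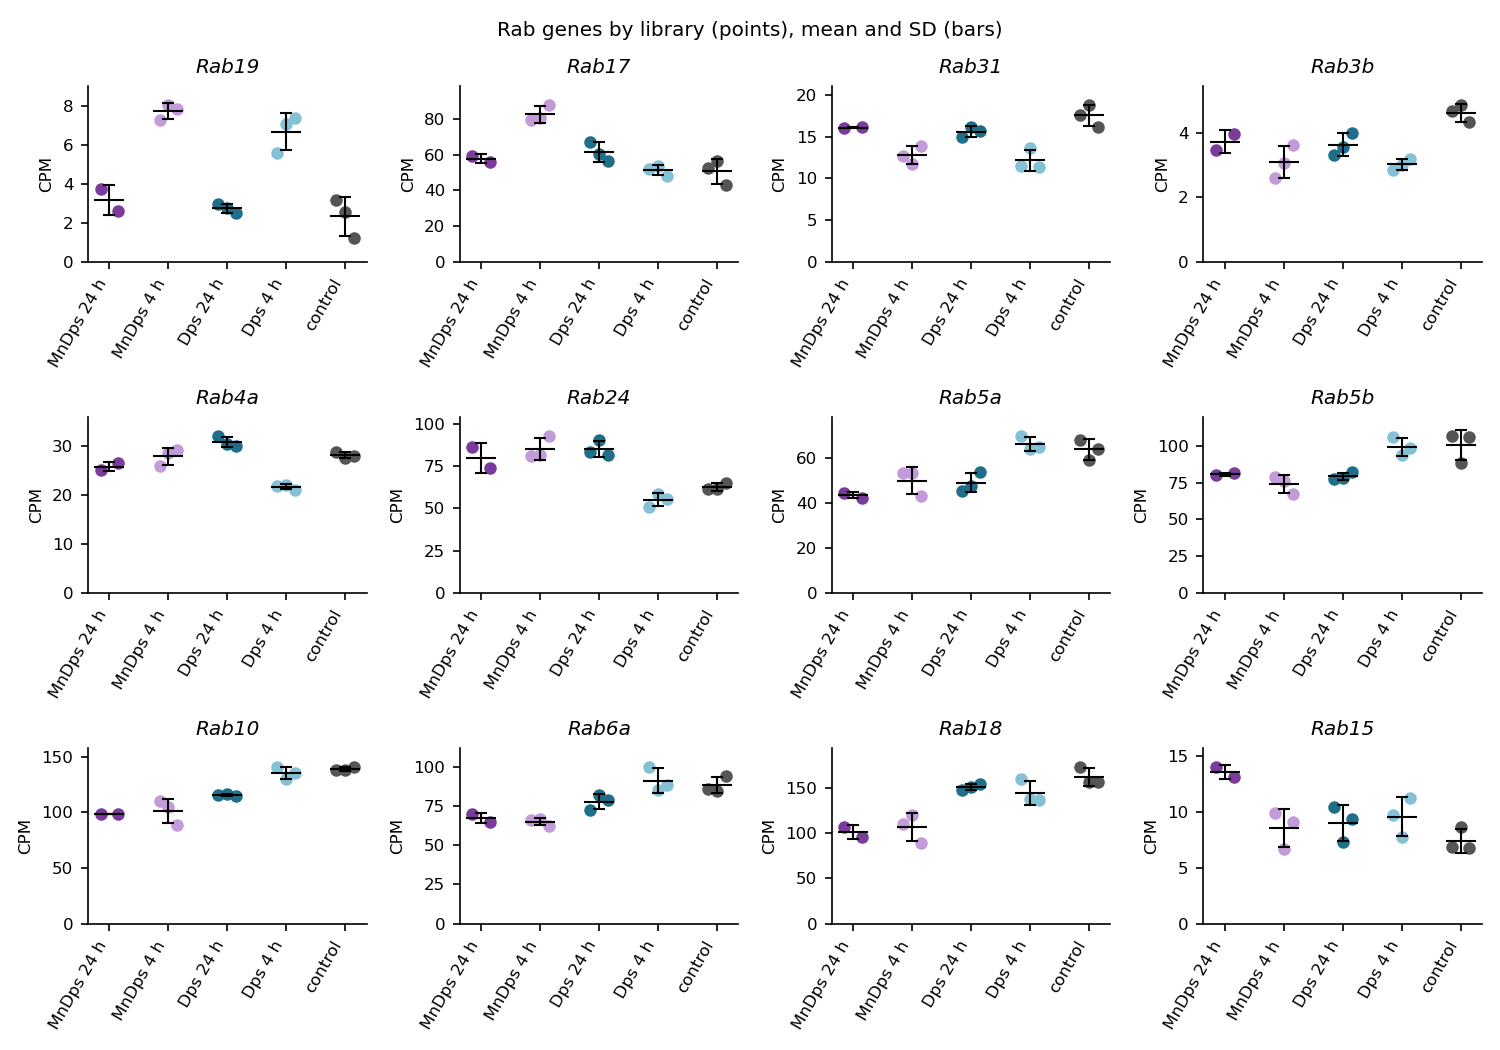
CPM of 12 Rab genes in each library (points), with the group mean and SD (bars), for MnDps 24 h (n = 2), MnDps 4 h, Dps 24 h, Dps 4 h and control kidneys (n = 3 each). Rab19 is high in both 4 h groups, Rab17 in MnDps 4 h, and Rab5a, Rab5b and Rab10 are lower in MnDps 24 h, MnDps 4 h and Dps 24 h than in Dps 4 h and control kidneys.

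In the recycling and plasma membrane group of 10 genes, 1 was higher and 1 lower in MnDps 24 h, 4 and 1 in MnDps 4 h, 1 and 1 in Dps 24 h, and 0 and 0 in Dps 4 h kidneys. Over all tested genes, 4.93% were higher and 8.39% lower in MnDps 24 h, and 22.9% and 22.7% in MnDps 4 h kidneys. In Dps 24 h kidneys these shares were 9.64% and 10.4%, and in Dps 4 h kidneys 8.33% and 6.27%. The 4 higher in MnDps 4 h kidneys are 40% of the role, and 3 of these 4 ended or turned with the length and GC offset, as given below. The lower one was Rab10 in MnDps 24 h, MnDps 4 h and Dps 24 h kidneys alike. Rab10 delivers cargo such as glucose transporters to the plasma membrane. Rab10 had 98.7 and 98.3 CPM in MnDps 24 h, 110, 105 and 88.9 in MnDps 4 h, 116, 117 and 115 in Dps 24 h, 141, 130 and 135 in Dps 4 h, and 138, 138 and 141 in control kidneys. Every library of MnDps 24 h, MnDps 4 h and Dps 24 h lay below every Dps 4 h and control library. It fell in MnDps 24 h (log2 fold change -0.50 ± 0.09, adjusted p = 0.00285), MnDps 4 h (-0.45 ± 0.08, adjusted p = 0.000246) and Dps 24 h kidneys (-0.26 ± 0.08, adjusted p = 0.0264). Both MnDps calls held under every alternative, while the Dps 24 h call was lost with the offset, at -0.16, and in 4 of 6 fits that left a library out. An antisense gene, Rab10os, shares exon sequence with Rab10.

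Rab15, a Rab of early and recycling endosomes, had 14 and 13.1 CPM in MnDps 24 h, 9.90, 6.68 and 9.12 in MnDps 4 h, 10.4, 7.25 and 9.32 in Dps 24 h, 9.73, 7.73 and 11.2 in Dps 4 h, and 6.81, 8.66 and 6.75 in control kidneys. Both MnDps 24 h libraries lay above all others, and the rise against control was 1.84-fold (0.88 ± 0.20, adjusted p = 0.0102; 0.76 with the offset). The call was lost when either MnDps 24 h library was left out. Rab13, found at tight junctions, had 11.2, 10.9 and 12.7 CPM in MnDps 4 h against 9.22, 7.91 and 8.05 CPM in control kidneys. It rose there (0.47 ± 0.16, adjusted p = 0.0228), but not with the offset (0.13, adjusted p = 0.525) and in only 3 of 6 fits that left a library out. Rab25, the epithelial relative of Rab11, was called higher in MnDps 4 h (0.40 ± 0.13, adjusted p = 0.0178) and Dps 24 h kidneys (0.38 ± 0.13, adjusted p = 0.0478), with libraries that overlapped control in both, and the offset gave -0.06 and 0.03. Leaving out a library ended its call in 3 of 6 fits in MnDps 4 h and in 5 of 6 in Dps 24 h kidneys. Collecting duct marker sums were above control in every Dps 24 h library, and their part in the Rab25 values was not tested. Rab35 (0.25 ± 0.08, adjusted p = 0.0187) and Rab8a (0.20 ± 0.07, adjusted p = 0.0312), which serve fast recycling and apical delivery, rose slightly in MnDps 4 h kidneys, and with the offset they were at 0.11, not called, and at 0.35. Leaving out a library ended the call in 3 of 6 fits for Rab35 and in 4 of 6 for Rab8a. The recycling Rabs Rab11a and Rab11b and the Rab8a relative Rab8b were called against control in no group as counted. With the offset Rab11a was lower in Dps 4 h kidneys (-0.21, adjusted p = 0.0390), and Rab11b (0.30, adjusted p = 0.00667) and Rab8b (0.53, adjusted p = 0.0139) were higher in MnDps 4 h kidneys.

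Of 7 Rabs of late endosomes, lysosomes and autophagy, Rab24 moved most often. Rab24, which has been tied to autophagy, had 86.2 and 73.8 CPM in MnDps 24 h, 81.0, 81.7 and 93.0 in MnDps 4 h, 83.5, 90.8 and 81.8 in Dps 24 h, 50.9, 58.5 and 55.6 in Dps 4 h, and 61.2, 61.4 and 65.1 in control kidneys. The 8 libraries of the first 3 groups lay above every Dps 4 h and control library. As counted, Rab24 was called higher in MnDps 24 h (0.35 ± 0.09, adjusted p = 0.0225), MnDps 4 h (0.44 ± 0.08, adjusted p = 0.000588) and Dps 24 h kidneys (0.45 ± 0.08, adjusted p = 0.00362), but with the length and GC offset it was at 0.03, -0.02 and 0.08 and in no case called. Its transcript is short, at 1168 bases, and up to 830 bases of an exon overlap Prelid1 on the other strand. Rab29, which acts at the trans-Golgi network and lysosomes, had 20.8, 20.9 and 22.8 CPM in MnDps 4 h against 15.1, 16.9 and 15.8 CPM in control kidneys. It was called higher (0.43 ± 0.12, adjusted p = 0.00744), and the offset took it to 0.03. Rab9, which returns receptors to the Golgi from late endosomes, was called higher there too (0.27 ± 0.09, adjusted p = 0.0231) and was at -0.04 with the offset, and 4 of 6 fits that left a library out lost the call. Rab38, a Rab of lysosome-related organelles, had 11.7, 13.5 and 11.5 CPM in Dps 4 h against 14.7, 14.7 and 16.3 CPM in control kidneys. It fell there (-0.32 ± 0.10, adjusted p = 0.0498), and the call was lost in 5 of 6 fits that left a library out. With the offset Rab38 was also lower in MnDps 4 h kidneys (-0.28, adjusted p = 0.0387). Rab7 had 301 and 299 CPM in MnDps 24 h, 320, 303 and 322 in MnDps 4 h, 307, 320 and 302 in Dps 24 h, 361, 360 and 330 in Dps 4 h, and 331, 328 and 343 in control kidneys, and was called against control in none of them. With the offset it was lower in MnDps 4 h kidneys (-0.25, adjusted p = 0.00167).

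Among the 6 Rabs of regulated secretion, Rab3b fell at 4 h with both proteins. Rab3b, which docks secretory vesicles, had 3.47 and 3.97 CPM in MnDps 24 h, 2.61, 3.07 and 3.62 in MnDps 4 h, 3.31, 3.57 and 4.01 in Dps 24 h, 2.86, 3.0 and 3.20 in Dps 4 h, and 4.67, 4.87 and 4.33 in control kidneys. All treated libraries lay below the 3 control libraries. The log2 fold change was -0.57 ± 0.16 in MnDps 4 h (adjusted p = 0.00917) and -0.62 ± 0.16 in Dps 4 h kidneys (adjusted p = 0.0157), and with the offset it was -0.59 and -0.68. Omitting Dps 4 h replicate 1 or 2 ended the Dps 4 h call. Rab27b, a Rab of granule docking, had 2.65, 3.26 and 1.74 CPM in MnDps 4 h against 4.78, 4.76 and 3.85 CPM in control kidneys. It fell there (-0.78 ± 0.24, adjusted p = 0.0135), but its transcript has 6891 bases, the offset left -0.18 with no call, and the call was also lost without MnDps 4 h replicate 3, at -0.58. Rab3d, found on secretory granules, had 18.0 and 16.1 CPM in MnDps 24 h against 12.1, 12.4 and 13.6 CPM in control kidneys, a rise of 0.42 ± 0.11 (adjusted p = 0.0190) that was lost without MnDps 24 h replicate 1 or control replicate 1. Rab27a was called in no comparison. Rab3a was called against control in no group as counted, but with the offset it was lower in Dps 4 h kidneys (-0.35, adjusted p = 0.0165).

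Of the 5 remaining genes, Rab40c, which brings a ubiquitin ligase to its targets, was the only one called against control as counted. It had 18.8, 18.9 and 18.9 CPM in Dps 24 h against 14.4, 13.3 and 16.8 CPM in control kidneys (0.34 ± 0.10, adjusted p = 0.0303). The call was lost with the offset, at 0.21, and in 5 of 6 fits that left a library out. With the offset Rab28, which is needed for cone photoreceptors and cilia, was lower in MnDps 4 h kidneys (-0.32, adjusted p = 0.00323), as was Rab42 in MnDps 4 h (-1.12, adjusted p = 0.0198) and Dps 24 h kidneys (-1.45, adjusted p = 0.0278).

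MnDps was next set against Dps at each time. At 24 h, 0 Rab genes were higher and 1 lower after MnDps than after Dps, against 0.148% and 0.666% of all tested genes. The gene was Rab18, with 107 and 96.1 CPM in MnDps 24 h against 147, 151 and 154 CPM in Dps 24 h kidneys (log2 fold change -0.57 ± 0.11, adjusted p = 0.0301). It held with the offset, at -0.47, and was lost when any 1 of the 5 libraries was left out. With the offset 0 were higher and 2 lower, against 0.135% and 0.687% of all tested genes. At an unadjusted p under 0.05 in edgeR 2 were higher and 11 lower, against 7.30% and 8.98% of all tested genes. DESeq2 called 0 higher and 4 lower, against 1.33% and 3.26% of the 12273 genes to which it gave an adjusted p. At 4 h, 12 Rab genes were higher and 8 lower after MnDps than after Dps, against 20.8% and 20.7% of all tested genes. With the offset 5 were higher and 9 lower, against 12.3% and 9.15% of all tested genes, and only 2 higher and 5 lower were called in the same direction in both fits. Without MnDps 4 h replicate 3 the count was 12 in place of 20, and without Dps 4 h replicate 1 it was 13.

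Rab17 and Rab8a were the 2 genes higher after MnDps at 4 h in both fits. Rab17 was 0.69 ± 0.10 log2 units higher (adjusted p = 8.8e-05; 0.43 with the offset). Rab8a, which delivers vesicles to the apical membrane, had 105, 108 and 121 CPM in MnDps 4 h against 89.2, 91.5 and 90.8 CPM in Dps 4 h kidneys (0.30 ± 0.07, adjusted p = 0.00353), and the offset raised the value to 0.51. The 5 lower in both fits were Rab6a (-0.49 ± 0.08, adjusted p = 0.000213), Rab5b (-0.43 ± 0.09, adjusted p = 0.000987), Rab10 (-0.42 ± 0.08, adjusted p = 0.000497), Rab5a (-0.41 ± 0.09, adjusted p = 0.00225) and Rab42 (-1.12 ± 0.33, adjusted p = 0.0116). For Rab17, Rab8a, Rab6a, Rab5b, Rab10 and Rab5a the call held under every alternative. Rab42, a Rab of which little is known, had 0.564, 0.505 and 0.289 CPM in MnDps 4 h against 0.803, 1.18 and 1.03 CPM in Dps 4 h kidneys, and its call was lost without MnDps 4 h replicate 3 or Dps 4 h replicate 2. It has between 5 and 49 counts in a library. Proximal tubule marker sums were 55400 to 68200 CPM in MnDps 4 h against 43200 to 48900 CPM in Dps 4 h kidneys, and collecting duct sums were also higher in every MnDps 4 h library than in any Dps 4 h one. By single genes, 2 of 8 proximal tubule markers were called higher and 3 lower after MnDps. For 6 collecting duct markers the counts were 3 and 1. Over all tested genes 20.8% were higher and 20.7% lower. The part of these markers in the Rab differences was not tested.

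Several calls between the proteins at 4 h ended with the offset. Rab24 was 0.63 ± 0.08 higher after MnDps as counted (adjusted p = 7.6e-05) and 0.17 with the offset. Rab3a, which acts in exocytosis, had 11.9, 13.1 and 13.5 CPM in MnDps 4 h against 8.48, 9.20 and 8.84 CPM in Dps 4 h kidneys (0.53 ± 0.10, adjusted p = 0.000836) and was at 0.19 with the offset. Rab13 was 0.49 ± 0.15 higher (adjusted p = 0.0189) and at 0.13 with the offset. Rab4b, the sister of Rab4a, had 32.3, 36.4 and 39 CPM in MnDps 4 h against 25.5, 29.1 and 26.8 CPM in Dps 4 h kidneys (0.40 ± 0.11, adjusted p = 0.00736) and turned to -0.07. Rab18 was lower as counted (-0.44 ± 0.10, adjusted p = 0.00232) and turned to 0.11. Over the 53 Rab genes rho between this log2 fold change and transcript length was -0.52 as counted, beside -0.66 over all genes, and 0.32 for the Rab genes with the offset, so a trend of the other sign was left among them.

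**Figure D4:**
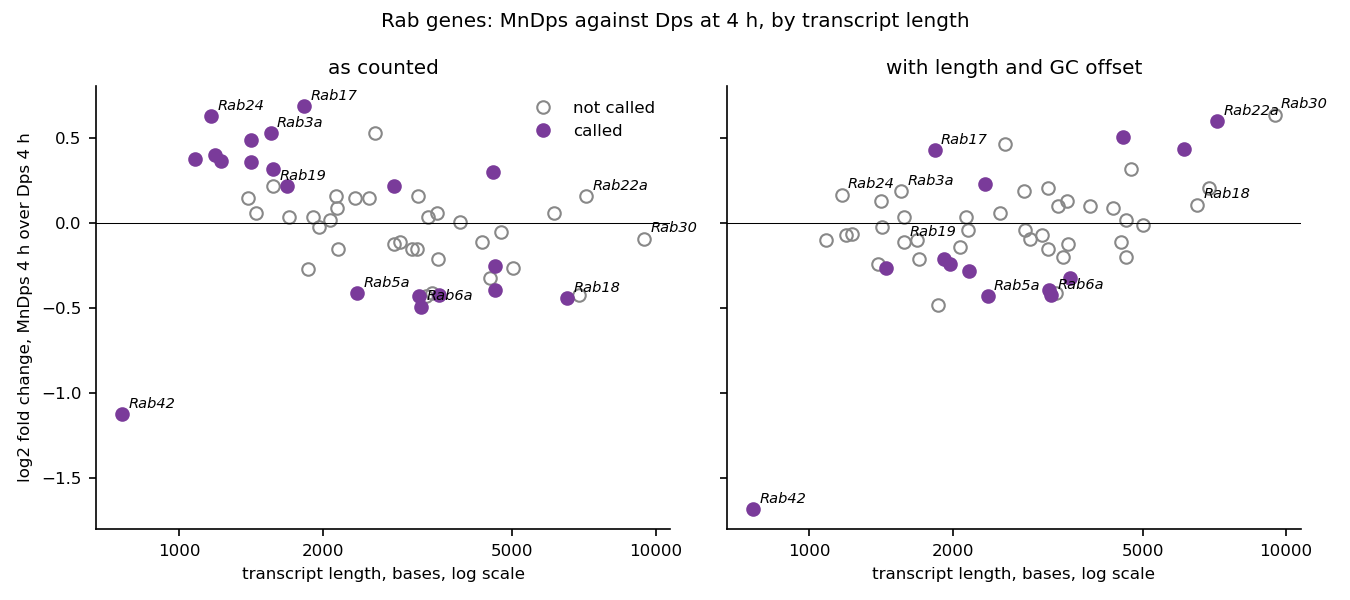
Log2 fold change of MnDps 4 h over Dps 4 h for 53 Rab genes against transcript length (log scale), as counted (left) and with the length and GC offset (right); filled points are called. The short Rab24, of 1168 bases, and the long Rab18, of 6515 bases, move close to 0 with the offset, while Rab17, Rab5a and Rab6a keep their sign and call.

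Between times, 24 h was set against 4 h. After MnDps, 2 Rab genes were higher and 8 lower at 24 h, against 10.1% and 11.7% of all tested genes, and with the offset 4 were higher and 5 lower, against 10.9% and 10.2%. Rab15 (0.67 ± 0.19, adjusted p = 0.0226) and Rab36 (0.78 ± 0.24, adjusted p = 0.0286) were the higher ones. Rab17 (-0.52 ± 0.11, adjusted p = 0.00329) and Rab32, a Rab of lysosome-related organelles (-0.53 ± 0.12, adjusted p = 0.00475), were among the lower ones in both fits. Without MnDps 24 h replicate 2, none of these 10 was called. After Dps, 13 Rab genes were higher and 11 lower at 24 h, against 22.0% and 22.6% of all tested genes, and with the offset 11 were higher and 9 lower, against 22.0% and 14.3%. Rab4a (0.51 ± 0.08, adjusted p = 9.1e-05), Rab24 (0.64 ± 0.08, adjusted p = 3.3e-05), Rab38 (0.45 ± 0.10, adjusted p = 0.00255) and Rab8a (0.27 ± 0.07, adjusted p = 0.00719) rose, and Rab5a (-0.44 ± 0.09, adjusted p = 0.00142), Rab5b (-0.33 ± 0.09, adjusted p = 0.00580) and Rab42 (-1.50 ± 0.35, adjusted p = 0.00274) fell, each under every alternative. With the offset the rise of Rab24 was 0.26 and that of Rab4a 0.25. Without Dps 4 h replicate 1 or Dps 24 h replicate 1 the count was 14 in place of 24.

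Whether the difference between MnDps and Dps was the same at both times was tested as a contrast of its own, the log2 fold change of MnDps over Dps at 24 h minus that at 4 h. It was positive for 3 Rab genes and negative for 7, against 13.7% and 15.7% of all tested genes, and as shares of the 53 these are 5.66% and 13.2%. With the offset it was positive for 4 and negative for 7, against 4.38% and 8.66% of all tested genes.

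Genes that act on Rabs were counted from lists of GDI, escort and prenylation genes (9 tested), exchange factors (34), activating proteins for GTP hydrolysis (34) and effectors (46 of 48). In MnDps 4 h kidneys 3 of the 9 were higher and 3 lower against control, with 3 and 9 exchange factors, 4 and 17 activating proteins, and 8 and 17 effectors. Over all 123 regulators that is 18 higher and 46 lower, or 14.6% and 37.4%, beside 22.9% and 22.7% of all tested genes. The median log2 fold changes there were 0.02, -0.14, -0.28 and -0.23 in the same order, beside 0.00 over all genes. With the offset 1 and 3, 7 and 5, 4 and 12, and 7 and 11 were called, or 15.4% and 25.2% of the 123, beside 15.8% and 22.1% of all genes. Without MnDps 4 h replicate 3, 11 regulators were higher and 37 lower as counted, or 8.94% and 30.1%, beside 17.8% and 18.6% of all genes in that fit. In MnDps 24 h kidneys 4 regulators were higher and 13 lower as counted, or 3.25% and 10.6%, beside 4.93% and 8.39% of all genes. The offset left 3 higher and 5 lower there, or 2.44% and 4.07%, beside 2.20% and 4.49% of all genes. In Dps 24 h kidneys 5 were higher and 24 lower, or 4.07% and 19.5%, beside 9.64% and 10.4% of all genes. The offset left 2 higher and 8 lower there, or 1.63% and 6.5%, beside 3.85% and 4.61% of all genes. In Dps 4 h kidneys 8 were higher and 5 lower, or 6.5% and 4.07%, beside 8.33% and 6.27% of all genes. The offset gave 5 higher and 17 lower there, or 4.07% and 13.8%, beside 8.36% and 15.6% of all genes. In Dps 4 h kidneys the share of regulators called lower was thus below that of all genes in both fits.

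Chm, the escort protein that presents new Rabs for prenylation, averaged 13.4 ± 0.633 CPM in MnDps 24 h (SD, n = 2), 9.83 ± 2.60 in MnDps 4 h, 15 ± 1.84 in Dps 24 h, 24.0 ± 2.70 in Dps 4 h and 24.2 ± 3.22 CPM in control kidneys (SD, n = 3 each). It fell in MnDps 24 h (-0.85 ± 0.18, adjusted p = 0.00855), MnDps 4 h (-1.30 ± 0.16, adjusted p = 2.0e-05) and Dps 24 h kidneys (-0.69 ± 0.16, adjusted p = 0.00879), and with the offset it was -0.30, not called, -0.79 and -0.44. The MnDps 4 h call held under every alternative and was -1.13 without MnDps 4 h replicate 3, while that in MnDps 24 h kidneys was lost when either library of that group was left out and that in Dps 24 h kidneys without control replicate 3. Eea1, the early endosome tether recruited by Rab5, averaged 41.9 ± 0.947 CPM in MnDps 24 h, 40.5 ± 9.91 in MnDps 4 h, 52.6 ± 3.21 in Dps 24 h, 72.1 ± 5.68 in Dps 4 h and 72.7 ± 7.57 CPM in control kidneys. It fell in MnDps 24 h (-0.79 ± 0.16, adjusted p = 0.00609; -0.47 with the offset), MnDps 4 h (-0.84 ± 0.14, adjusted p = 0.000240; -0.39 with the offset) and Dps 24 h kidneys (-0.47 ± 0.14, adjusted p = 0.0267). The Dps 24 h call was lost with the offset, at -0.13, and in 4 of 6 fits that left a library out, and the MnDps 24 h call was lost without either library of that group. In MnDps 4 h kidneys the value was -0.67 without MnDps 4 h replicate 3, still called.

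Mon1a, part of the exchange factor for Rab7, averaged 35.9 ± 0.631 CPM in MnDps 24 h, 32.7 ± 3.63 in MnDps 4 h, 32.5 ± 1.41 in Dps 24 h, 26.2 ± 1.26 in Dps 4 h and 25.1 ± 2.11 CPM in control kidneys. It rose in the first 3 of these groups, by 0.52 ± 0.10 (adjusted p = 0.00532), 0.38 ± 0.09 (adjusted p = 0.00319) and 0.37 ± 0.09 (adjusted p = 0.0120), and all 3 calls held with the offset, at 0.35, 0.24 and 0.27. The MnDps 24 h call was lost without MnDps 24 h replicate 1 and the Dps 24 h call without control replicate 3. Among genes of low level, calls at 4 h went both ways. Micall2, an effector of Rab13 and Rab8, averaged 7.63 ± 0.797 CPM in MnDps 4 h and 7.48 ± 1.83 in Dps 4 h against 3.33 ± 1.10 CPM in control kidneys (1.21 ± 0.23, adjusted p = 0.000700, and 1.18 ± 0.23, adjusted p = 0.00206). Tbc1d30, an activating protein for Rab8, averaged 3.09 ± 0.604 CPM in MnDps 4 h and 3.69 ± 0.609 in Dps 4 h against 1.58 ± 0.416 CPM in control kidneys (0.96 ± 0.22, adjusted p = 0.00257, and 1.20 ± 0.22, adjusted p = 0.00111). Rin1, an exchange factor for Rab5, averaged 4.96 ± 1.22 CPM in Dps 4 h against 2.27 ± 0.433 CPM in control kidneys (1.14 ± 0.22, adjusted p = 0.00208). In MnDps 4 h kidneys Rin1 averaged 3.35 ± 0.103 CPM and was not called as counted (0.57 ± 0.23, adjusted p = 0.0519), but was with the offset (0.65, adjusted p = 0.0258). The 5 calls given for Micall2, Tbc1d30 and Rin1 held under every alternative. Myrip, which links Rab27a to a myosin motor, averaged 0.477 ± 0.0471 CPM in MnDps 4 h and 0.636 ± 0.301 in Dps 4 h against 1.51 ± 0.813 CPM in control kidneys. It fell in MnDps 4 h (-1.72 ± 0.41, adjusted p = 0.00293; -1.59 with the offset) and Dps 4 h kidneys (-1.42 ± 0.38, adjusted p = 0.0190; -1.52 with the offset). The MnDps 4 h call held under every alternative, between -2.02 and -1.15, while Dps 4 h libraries overlapped control and that call was lost in 3 of 6 fits that left a library out and in a fit of only the groups compared.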

How the data were processed

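Kidney RNA was sequenced from a stranded mRNA kit in paired-end mode, per the labels' protocols. STAR was the aligner, featureCounts the counter and mm10 the build, per the submitters' processing notes; their versions, the annotation, the strand setting and the treatment of multi-mapped reads were not given in the sources used here. As deposited, the values are raw counts per gene symbol, with no normalisation. Libraries were grouped by treatment and time from the labels, and replicates are numbered in series order. With edgeR 4.0.16 (R 4.3.3), filterByExpr by group kept 14854 of 24421 genes, counts were scaled by the trimmed mean of M-values, and 1 fit of 5 group means over 14 libraries (9 residual degrees of freedom, robust dispersion, biological coefficient of variation 10.7%) was tested by the quasi-likelihood F-test with Benjamini-Hochberg adjustment within each comparison. The SE is the log2 fold change divided by the square root of F. Alternatives were size factors by median of ratios, omitting the count filter or asking for 1 CPM in 3 libraries, DESeq2 1.42.0, a fit of only the groups compared, the length and GC offset (splines of 5 degrees of freedom per term; values for 99.4% of tested genes, from GENCODE M21), and leaving out each library. The scripts were tested on simulated data. RPKM is CPM per kilobase of the longest protein-coding transcript. Promoter windows are RefSeq's, on GRCm38.p6.

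The members, roles and lists were chosen with earlier results of these data known. The text names, in each comparison against control or between proteins, up to 5 rises and falls with no overlap between libraries, the 5 members of highest mean RPKM, those at the count threshold and those whose protein effect differed between times; others named were chosen after their values were seen. Regulators follow a rule of at most 3 rises and falls per list and comparison, from which a few are printed. With total counts of 15097093 to 42074942 per library, counting error is below the biological spread for most members, but 9 had under 50 counts in at least 1 library, where it was 14.9% for Rab19, 16.7% for Rab27b and 44.7% for Rab42.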

Additional observations from a re-analysis of the deposited data

Results flagged for a closer look

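For 10 of the 53 tested Rab genes the difference between MnDps and Dps was not the same at 24 h as at 4 h, by a test of that difference itself (edgeR's quasi-likelihood test, p adjusted by Benjamini-Hochberg); 3 of these values were positive and 7 negative, or 5.66% and 13.2%, beside 13.7% and 15.7% of all tested genes. Each value is the log2 fold change of MnDps over Dps at 24 h minus that at 4 h. It was -0.78 for Rab17 (adjusted p = 0.00124), -0.73 for Rab24 (adjusted p = 0.000865), -0.62 for Rab4a (adjusted p = 0.00115), -0.52 for Rab2a (adjusted p = 0.00282) and -0.47 for Rab3a (adjusted p = 0.0354). It was -0.39 for Rab11a (adjusted p = 0.00860), -0.30 for Rab8a (adjusted p = 0.0475), 0.45 for Rab5b (adjusted p = 0.0152), 0.75 for Rab15 (adjusted p = 0.0418) and 2.18 for Rab42 (adjusted p = 0.00623). Rab2a had 180 and 164 CPM in MnDps 24 h kidneys against 223, 221 and 222 CPM in Dps 24 h kidneys, and 212, 232 and 204 CPM in MnDps 4 h kidneys against 196, 196 and 188 CPM in Dps 4 h kidneys. Rab11a had 110 and 99.3 CPM in MnDps 24 h kidneys against 123, 124 and 124 CPM in Dps 24 h kidneys, and 110, 119 and 122 CPM in MnDps 4 h kidneys against 106, 109 and 100 CPM in Dps 4 h kidneys. Rab42 had 0.630 and 0.819 CPM in MnDps 24 h kidneys against 0.427, 0.392 and 0.239 CPM in Dps 24 h kidneys, the other way round from 4 h.

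Without MnDps 24 h replicate 2, 5 rather than 10 Rab genes were called. The calls for Rab17 and Rab2a held under every alternative. With the length and GC offset Rab24 (-0.22), Rab4a (-0.21), Rab3a (-0.11), Rab11a (-0.23) and Rab15 (0.68) were no longer called, while Rab22a (-0.86), Rab18 (-0.57), Rab11b (-0.54), Rab21 (-0.34), Rab7 (0.26) and Rab5a (0.37) were called, which makes 11, against 4.38% positive and 8.66% negative among all tested genes. The call for Rab8a held in 5 of 17 alternatives, that for Rab3a in 7 and that for Rab15 in 9. The causes were not tested.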

How the results depend on the processing

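Counts of called Rab genes stayed within 1.5 times the reported count under all settings other than leaving out a library, with these exceptions. Against control in Dps 4 h kidneys the length and GC offset gave 12 in place of 6. For MnDps against Dps at 24 h, in place of 1, there were 2 without a count filter, 4 with DESeq2, 4 in a fit of only the groups compared and 2 with the offset. Leaving out each library in turn gave 4 to 15 calls against control in MnDps 24 h kidneys, 15 to 22 in MnDps 4 h, 2 to 8 in Dps 24 h and 3 to 7 in Dps 4 h kidneys. It gave 0 to 6 for MnDps against Dps at 24 h (6 without MnDps 4 h replicate 3) and 12 to 21 at 4 h, 0 to 14 for 24 h against 4 h after MnDps and 14 to 25 after Dps, and 5 to 13 for the difference between times. A lone MnDps 24 h library is then assumed to vary like the other groups.

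Of the single log2 fold changes of Rab genes, 13 reversed, all with the length and GC offset. In MnDps 4 h kidneys against control these were Rab24 (-0.02), Rab25 (-0.06), Rab20 (-0.08) and Rab9 (-0.04). Between MnDps and Dps at 4 h they were Rab29 (-0.06), Rab21 (0.02), Rab34 (-0.10), Rab18 (0.11), Rab25 (-0.10), Rab4b (-0.07) and Rab4a (-0.02), and between 24 h and 4 h after Dps they were Rab25 (-0.01) and Rab4b (-0.05). Of the regulators' values that of Rabggtb in MnDps 4 h kidneys (-0.03) reversed with the offset. The offset kept 65 calls, and 34 more lost theirs with the same sign; DESeq2 kept 110 and lost 2. The cause was not tested. Calls that held under every alternative numbered 2 of 12 in MnDps 24 h, 9 of 22 in MnDps 4 h, 0 of 7 in Dps 24 h and 3 of 6 in Dps 4 h kidneys. No paired analysis was possible because the labels carry no replicate numbers. Rab42 was not tested under the stricter filter. Depth limits the 9 members with under 50 counts in some library, Rab19 and Rab27b among them.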
